A study of Mus musculus with 2 samples.

Results

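The genes of cholesterol and fatty acid metabolism were read in mouse regulatory T cells as a named list of 38 genes. The list holds the regulators of lipid synthesis, the enzymes of sterol and fatty acid synthesis, desaturases and elongases, genes of cholesterol export and esterification, enzymes of fatty acid oxidation and 1 uptake receptor. Each was matched by its GENCODE M21 gene name, and all 38 were found among 55536 annotated genes. The sequenced RNA was the polyadenylated RNA of regulatory T cells that had experienced inflammation. These CD4 T cells dampen immune reactions and depend on the transcription factor Foxp3. The cells came from an adult male mouse aged 6 months of the strain Foxp3CreERT2 x Rosa26YFP, in which the Foxp3 gene drives a tamoxifen-inducible Cre recombinase and a YFP reporter stands at Rosa26. The labels give their origin as a bone marrow hematopoietic cell and do not say how inflammation was applied or how the cells were isolated. They list 1 donor and 1 biological replicate, sequenced as 2 technical libraries of sheared fragments of 100 to 300 bp, and no control cells were analysed here.

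Cholesterol is built from acetyl-CoA through mevalonate, isoprenoids, squalene and lanosterol. When membranes hold little sterol, the protein Scap carries SREBP transcription factors out of the endoplasmic reticulum to be cleaved, and the Insig proteins hold Scap back when sterol is plentiful. The factor encoded by Srebf2 mainly drives sterol synthesis genes and that encoded by Srebf1 mainly drives fatty acid synthesis genes. Regulatory T cells are known for their use of the mevalonate pathway and of fatty acid oxidation.

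The larger deposited gene table held 15386113 counts in technical replicate 1 and 13604480 in technical replicate 2. The values of a gene are given below for technical replicate 1 and then 2. All 4 T cell markers (Cd3e, Cd3d, Cd4, Trac) and all 4 regulatory T cell markers (Foxp3, Il2ra, Ctla4, Ikzf2) were at 1 TPM or more in both libraries, with Foxp3 at 22.05 and 17.90 TPM. TPM, a share of all transcripts in the library, scales reads by transcript length and library depth, so levels of different genes can be set side by side. Protein-coding transcripts held 17.9% and 19.2% of the TPM of Foxp3 and 30.9% and 31.2% of that of Ikzf2. For Il2ra the share was 89.2% and 91.2%, and for Ctla4 98.9% and 99.4%. Foxp3 overlaps Ccdc22, Gm36995 and Ppp1r3f on the other strand. Of 23 markers of B cells, macrophages, platelets, erythroid cells, adipocytes, hepatocytes and endothelium, 2 reached 1 TPM in both libraries (Cd68 and Itga2b) and 8 were listed at 0 in both. Their summed level was 10.94 and 8.29 TPM. Every ± below is the SD over these 2 libraries and so covers technical variation only, not variation between animals. In bulk RNA, fewer cells with a transcript and less of it per cell cannot be told apart.

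Most of the program was present: 35 of the 38 genes, or all but Scd1, Fads2 and Cd36, were at 1 TPM or more in both libraries. Among all annotated genes 24.3% met this level, and among protein-coding genes 46.7%. The median of the 38 genes was 22.5 TPM, with library medians of 23.0 and 22.4. The 10288 protein-coding genes above the threshold had a median of 18.3 TPM. The order ran from Elovl5 at 107.7 ± 2.68 TPM (SD, n = 2) to Cd36 at 0.030 ± 0.042 TPM. Of the 37 neighbouring pairs in this order, the library values of 15 pairs did not overlap and those of 22 did, so much of the middle of the order is not resolved.

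By role, late sterol synthesis had a median of 37.1 TPM over 8 genes, efflux and esterification 35.6 TPM over 3 genes and fatty acid oxidation 30.3 TPM over 5. Early sterol synthesis stood at 23.4 TPM over 7 genes, the regulators at 22.2 over 5 and fatty acid synthesis at 19.9 over 3. Desaturation and elongation had a median of 5.35 TPM over 6 genes and held both the highest gene of the list and 2 of the 3 genes below threshold. Uptake was represented by Cd36 alone. These medians carry no test, the groups' ranges overlapped, and the order of the groups was not stable. Late sterol synthesis stood above efflux and esterification in technical replicate 1 (38.9 and 36.3 TPM) and below it in technical replicate 2 (34.1 and 34.8 TPM). Early sterol synthesis stood above the regulators in technical replicate 1 (25.9 and 21.2 TPM) and below them in technical replicate 2 (21.5 and 23.3 TPM). With protein-coding transcripts alone, late sterol synthesis (21.8 TPM) lay below efflux and esterification (31.8 TPM) and below early sterol synthesis (23.4 TPM).

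**Figure D1:**
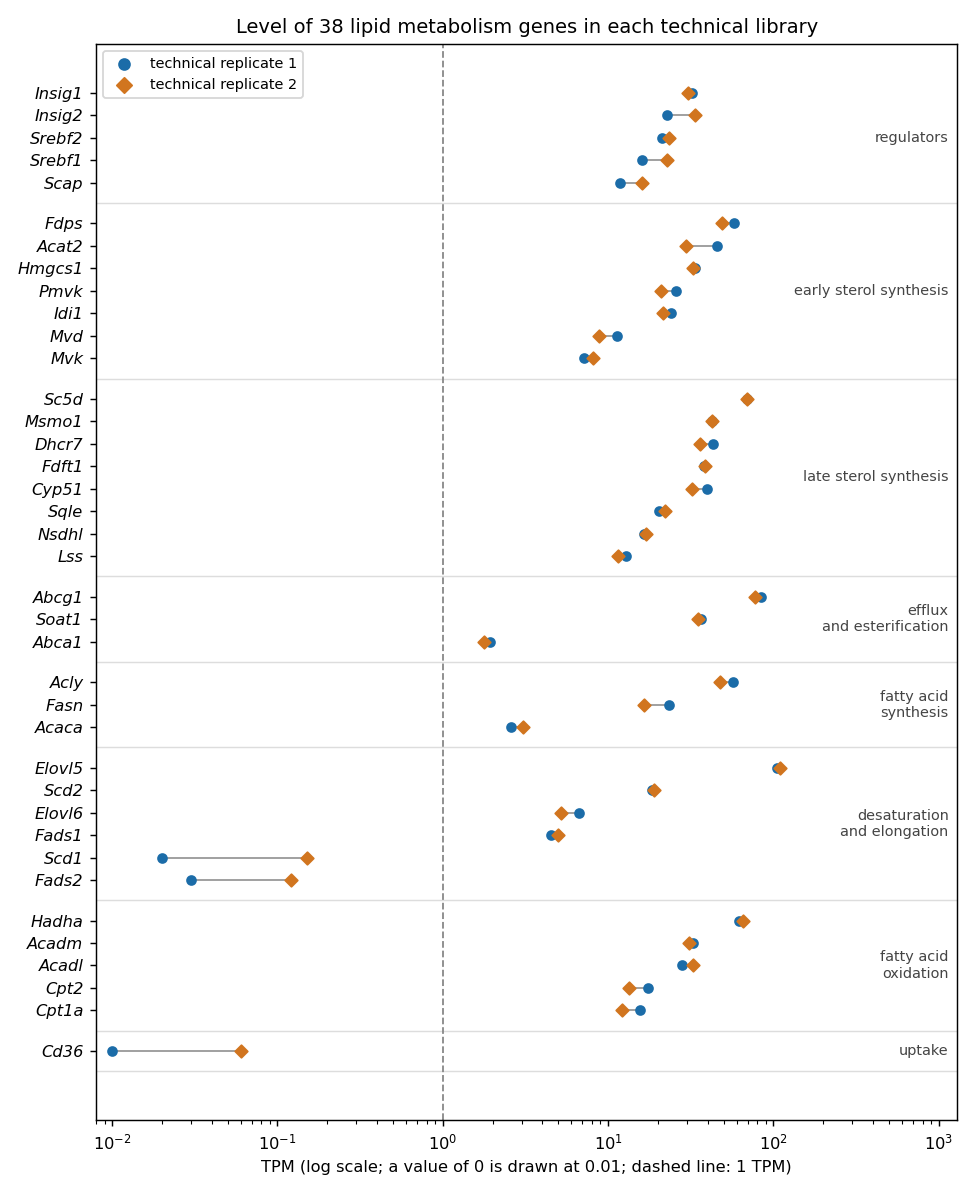
TPM of each of the 38 genes on a log axis, with technical replicate 1 as a circle and technical replicate 2 as a diamond, ordered within each role group by mean level. The 35 genes to the right of the dashed line at 1 TPM span from Abca1 (1.93 and 1.77 TPM) to Elovl5 (105.77 and 109.56 TPM), while Scd1, Fads2 and Cd36 lie at 0.15 TPM or below.

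All 5 regulators were present at middle levels. Srebf2 (ENSMUSG00000022463.8, chr15:82147181-82205379, plus strand; mm10 here and throughout) stood at 21.19 and 23.27 TPM, from 871 and 800 estimated counts. Srebf1 (ENSMUSG00000020538.15, chr11:60199089-60222581, minus strand) stood at 16.16 and 22.79 TPM, from 523 and 564 counts. The ratio of Srebf2 to Srebf1 was therefore 1.31 in technical replicate 1 (95% counting interval 1.17 to 1.46) and 1.02 in technical replicate 2 (0.916 to 1.14). With protein-coding transcripts alone the order turned, to ratios of 0.922 and 0.763, so no order of these genes held across the ways of measuring them. Such intervals were exact binomial ones on counts per length. They leave out all but counting error, and PCR copies of a molecule could not be recognised.

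Scap, the escort protein of the SREBP precursors, was the lowest regulator at 11.87 and 16.08 TPM (chr9:110333288-110384950, plus strand; 357 and 362 counts). Insig1 (chr5:28071363-28078662, plus strand) had 32.33 and 30.26 TPM from 1051 and 864 counts. Insig2, the related retention protein (chr1:121304353-121332589, minus strand), had 22.65 and 33.78 TPM from 562 and 530 counts. Insig1 was the higher in technical replicate 1, with a ratio of 1.43 (1.29 to 1.58), and the lower in technical replicate 2, with a ratio of 0.896 (0.803 to 1.000). The counts of Insig2 differed little while its TPM differed more, and the mean transcript length assigned to it was 2046 nt and 1478 nt. In technical replicate 2, the transcript Insig2-213 of 557 nt took 22.3% of the gene's TPM from 42.0 counts, where technical replicate 1 assigned it none. The longer Insig2-201 stayed at 14.79 and 14.53 TPM.

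Sequences near the start of these genes were taken from the RefSeq promoter table (GRCm38.p6, the sequence of mm10), which covers 250 bases before to 50 after each start and held 31 of the 38 genes. The core of the sterol regulatory element that SREBP proteins bind, searched as TCACNCCA on both strands, was in 3 of those 31 genes (9.68%), against 4.97% of 27025 genes with a promoter in the table. They were Hmgcs1, Msmo1 and Srebf2 itself. The matches are shown because they fall in a gene of early synthesis, a gene of late synthesis and a regulator; each window of 30 bases runs 5′ to 3′ on the gene's strand with the core in capitals.
Hmgcs1: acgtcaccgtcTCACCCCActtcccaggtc
Msmo1: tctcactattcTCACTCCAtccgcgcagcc
Srebf2: atgacgcaccaTCACCCCAtgagccgcttc
The Hmgcs1 window is chr13:119690203-119690232 on the plus strand, with its core 137 bases before the RefSeq start. The Msmo1 window is chr8:64733737-64733766 on the minus strand, 177 bases before a RefSeq start that lies 214 bases downstream of the start of its leading transcript Msmo1-201. The Srebf2 window is chr15:82147096-82147125 on the plus strand, 162 bases before the start. The levels of these 3 genes, 33.2, 42.4 and 22.2 TPM, lay inside the range of the list. A match in letters is a description and not a bound site.

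The CCAAT box and the GC box mark the sites of NF-Y and Sp1 class factors, which are known to act beside SREBP proteins. The CCAAT box (ATTGG on either strand, which can share letters with the sterol core) was in the promoters of 11 of 12 sterol synthesis genes in the table (91.7%), 21 of all 31 genes (67.7%) and 41.1% of the 27025 genes. Of the 5 oxidation genes 1 held it, Cpt1a. The GC box (GGGCGG on either strand) was in 11 of the 12 sterol synthesis genes, 80.6% of the 31 and 38.2% of all. It was also in all 5 regulators, 4 of 5 oxidation genes and both efflux and esterification genes in the table. In fatty acid synthesis 1 of 3 genes held it, as did 1 of 3 in desaturation and elongation. The GC box was therefore not particular to sterol synthesis within the list. A gene with several promoters counted once, if any of them held the letters, and 39 promoters of 31 genes were read. These shares carry no test.

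Every one of the 15 sterol synthesis enzymes exceeded 1 TPM in each library, at a median level of 33.2 TPM and a summed level of 488.2 and 439.4 TPM. In the early steps, Acat2, the cytosolic thiolase that joins acetyl-CoA units (chr17:12942890-12960747, minus strand), had 45.83 and 29.43 TPM. Hmgcs1, which makes HMG-CoA, had 33.48 and 32.88 TPM. Among the mevalonate enzymes, mevalonate kinase (Mvk) was the lowest of the early steps at 7.12 and 8.14 TPM from 139 and 128 counts (chr5:114444269-114460591, plus strand). The next kinase, Pmvk, had 25.91 and 20.82 TPM. The decarboxylase Mvd (chr8:122433601-122443422, minus strand) had 11.39 and 8.80 TPM. The isomerase Idi1 had 24.01 and 21.49 TPM. Fdps, which makes the farnesyl diphosphate used for sterols and for protein prenylation, was the highest of the early steps at 58.20 and 49.06 TPM from 886 and 685 counts (chr3:89093588-89101959, minus strand). Fdps thus exceeded Mvk several-fold in both libraries, and the 7 enzymes of this linear route did not share a common level.

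In the late steps, Sc5d, the lathosterol desaturase, was the highest sterol enzyme at 69.34 and 69.01 TPM (ENSMUSG00000032018.14, chr9:42251595-42264256, minus strand; 2055 and 1823 counts). Fdft1, which condenses farnesyl diphosphate to squalene, had 38.16 and 38.41 TPM. The squalene epoxidase Sqle had 20.41 and 22.04 TPM. Lanosterol synthase (Lss, chr10:76531588-76557138, plus strand) was the lowest at 12.86 and 11.51 TPM from 377 and 270 counts. The lanosterol demethylase Cyp51 (chr5:4081145-4104746, minus strand) had 39.55 and 32.33 TPM. The methylsterol oxidase Msmo1 had 42.29 and 42.52 TPM. The sterol dehydrogenase Nsdhl had 16.52 and 17.07 TPM. Dhcr7, the reductase that ends a branch of the route (chr7:143823145-143848410, plus strand), had 43.09 and 35.90 TPM. Sc5d and Lss were separated in both libraries, and Msmo1, Dhcr7, Fdft1 and Cyp51 formed a run in which neighbours overlapped.

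Another 7 sterol synthesis genes outside the list all exceeded 1 TPM in each library. Lbr, a sterol reductase that is also a lamin B receptor of the nuclear envelope, was the highest at 230.27 and 227.13 TPM. Ebp, the sterol isomerase, had 108.23 and 94.73 TPM.

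Export and storage genes differed widely. Abcg1, a transporter that moves cholesterol to lipoprotein particles (ENSMUSG00000024030.7, chr17:31057675-31117988, plus strand), was the second highest gene of the list at 84.33 and 77.62 TPM from 6008 and 4887 counts. Abca1, the transporter that loads lipid onto apolipoproteins (chr4:53030787-53159895, minus strand), had 1.93 and 1.77 TPM from 245 and 199 counts and was the lowest gene above threshold. The ratio of Abcg1 to Abca1 was 43.7 in technical replicate 1 (38.4 to 49.8) and 43.9 in technical replicate 2 (37.9 to 50.6). Soat1, which esterifies cholesterol for storage, had 36.33 and 34.84 TPM. Of 12 genes of sterol sensing and transport outside the list, 11 reached 1 TPM in both libraries. The liver X receptor Nr1h2, a known regulator of both transporter genes, had 37.16 and 36.11 TPM, while its relative Nr1h3 had 1.06 and 0.31 TPM from 17 and 6 counts. The lysosomal sterol carrier Npc2 was the highest of these 12 at 137.32 and 138.56 TPM.

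The size of the Abcg1 level depended on which deposited gene table was read. The smaller table, made with an older gene set, gave Abcg1 199 and 153 counts, or 3.31% of its estimated count in technical replicate 1, and gave Abca1 58 and 47 counts. The ratio of their counts there was 3.43 and 3.26, without correction for length. Over 12422 genes in both tables the smaller counts were a median of 39.8% of the estimated counts, and over 35 genes of the list a median of 40.0%. Idi1 was the lowest of the list at 0.835% over both libraries, with 7 and 6 counts against 861 and 696. Insig1 had 60 and 42 counts against 1051 and 864. The highest count of any gene in the smaller table was 7093 and 6960, and Actb had 1976 and 1958 counts there against 372456 and 316580. What set these shares was not tested.

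**Figure D2:**
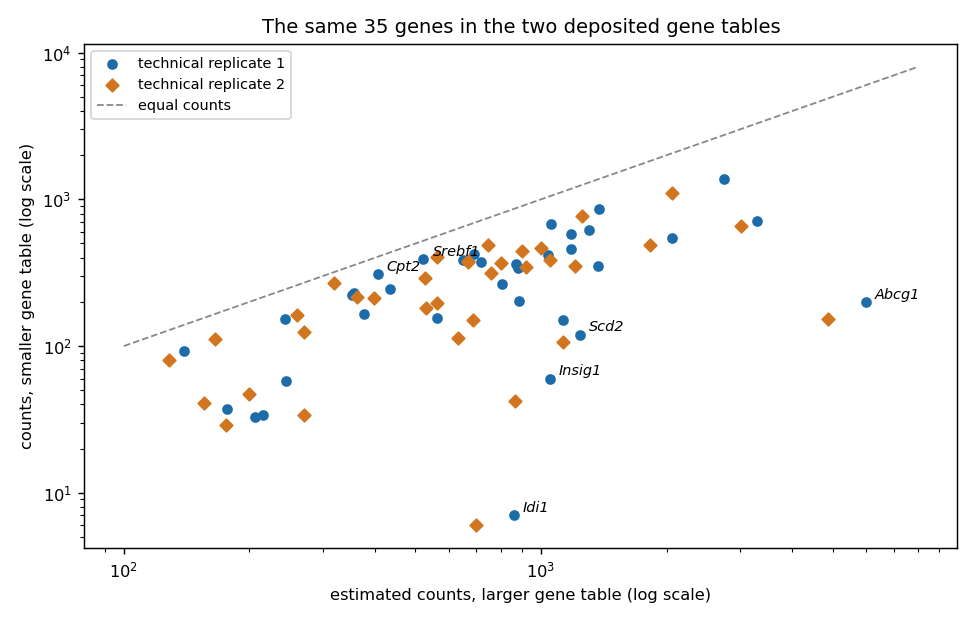
Counts of 35 genes in the smaller gene table against their estimated counts in the larger one, both axes logarithmic, with the dashed line marking equal counts. All points lie below the line; Idi1 (7 and 6 counts), Insig1 (60 and 42) and Abcg1 (199 and 153) lie farthest below it.

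The 3 enzymes of fatty acid synthesis spanned a wide range. Acly, which makes cytosolic acetyl-CoA from citrate (chr11:100476353-100528000, minus strand), had 56.74 and 47.29 TPM from 2749 and 2060 counts. Acaca, the acetyl-CoA carboxylase that commits it to fatty acids (chr11:84129672-84401651, plus strand), had 2.57 and 3.04 TPM from 207 and 270 counts. Fasn, the fatty acid synthase (ENSMUSG00000025153.9, chr11:120805846-120824547, minus strand), had 23.35 and 16.46 TPM from 1056 and 748 counts. Its full-length transcript Fasn-201 of 10050 nt held 22.3% and 29.7% of the TPM but 61.4% and 71.7% of the counts. With protein-coding transcripts alone Fasn was at 7.65 and 6.17 TPM, and the order of the 3 genes, Acly above Fasn above Acaca, was the same in both libraries.

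Of 8 further genes of fatty acid synthesis and elongation, 3 reached 1 TPM in both libraries. The elongase Elovl1 had 84.70 and 88.45 TPM, Acss2, which makes acetyl-CoA from acetate, had 13.12 and 12.29 TPM, and the citrate carrier Slc25a1 had 9.41 and 7.94 TPM. Acacb, the mitochondrial relative of Acaca, had 1.24 and 0.49 TPM. The malic enzyme Me1 had 0.07 and 0.00 TPM, and the elongase Elovl7 had 0.21 and 0.13 TPM.

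Desaturases and elongases included relatives at very different levels. Elovl5, which lengthens polyunsaturated fatty acids (ENSMUSG00000032349.13, chr9:77917364-77984519, plus strand), had 105.77 and 109.56 TPM from 3294 and 3022 counts. Elovl6, which lengthens saturated fatty acids (chr3:129532355-129638495, plus strand), had 6.70 and 5.18 TPM from 216 and 176 counts. Elovl5 was 15.8 times Elovl6 in technical replicate 1 (13.8 to 18.2) and 21.2 times in technical replicate 2 (18.1 to 24.7), intervals that overlap at their edges. Which transcript led Elovl6 changed between libraries: Elovl6-202 held 58.9% and 18.1% of its TPM and Elovl6-205 held 15.0% and 45.8%.

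Scd2, a stearoyl-CoA desaturase (chr19:44293674-44306864, plus strand), had 18.44 and 19.04 TPM from 1239 and 1130 counts. Scd1, the relative best known from liver and fat (chr19:44394455-44407879, minus strand), had 0.02 and 0.15 TPM from 1.02 and 2.14 estimated counts. The ratio of Scd2 to Scd1 was 922 and 127, with intervals of 196 to 43333 and 37.6 to 1125, so its size is not known closely. With 1 TPM added to both genes, the ratio of their mean TPM was 18.2. Scd3 and Scd4 stood at 0.02 and 0.11 TPM and at 0.60 and 0.43 TPM. These relatives share sequence, and the counts of Scd1 and Scd2 were not whole, so their reads were partly divided by estimation.

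Fads1, the desaturase that acts late in the synthesis of polyunsaturated fatty acids (chr19:10182888-10196877, plus strand), had 4.50 and 5.00 TPM from 177 and 156 counts. Fads2, which acts before it (chr19:10062765-10101746, minus strand), had 0.03 and 0.12 TPM from 1 and 4 counts. The ratio of Fads1 to Fads2 was 150 (30.7 to 6889) and 41.7 (16.3 to 158), and that of the mean TPM was 5.35 with 1 TPM added to both. In technical replicate 1 the TPM of Fads2 was below the 0.078 TPM that 3 counts would give.

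**Figure D3:**
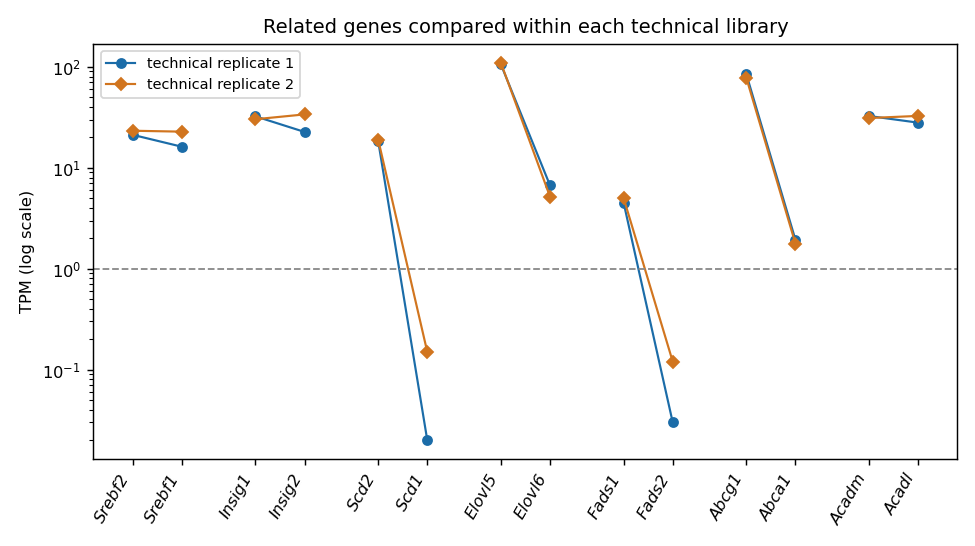
TPM on a log axis for 7 pairs of related genes, with a line joining the members of a pair in each technical library and a dashed line at 1 TPM. The lines for Scd2 and Scd1, Elovl5 and Elovl6, Fads1 and Fads2, and Abcg1 and Abca1 fall steeply in both libraries, while those for Insig1 and Insig2 and for Acadm and Acadl slope in opposite directions in the libraries.

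All 5 oxidation genes were above 1 TPM in both libraries. Cpt1a, the outer carnitine palmitoyltransferase that admits fatty acids to mitochondria (chr19:3322334-3385733, plus strand), was the lowest at 15.54 and 12.20 TPM from 807 and 564 counts. The inner enzyme Cpt2 had 17.50 and 13.40 TPM. Acadm, the medium-chain acyl-CoA dehydrogenase (chr3:153922357-153944632, minus strand), had 32.57 and 31.10 TPM. Acadl, the long-chain enzyme (chr1:66830839-66863277, minus strand), had 27.98 and 32.64 TPM. Their ratio was 1.16 (1.05 to 1.30) and 0.953 (0.849 to 1.07), on either side of equality. Hadha, the alpha subunit of the mitochondrial trifunctional protein (ENSMUSG00000025745.12, chr5:30118304-30155162, minus strand), was the highest at 61.68 and 65.89 TPM from 1379 and 1254 counts. With protein-coding transcripts alone Hadha was the lowest of the 5, at 3.49 and 3.12 TPM, below Cpt1a at 14.80 and 11.82 TPM.

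Of 16 further oxidation genes, 11 reached 1 TPM in both libraries. The electron transfer flavoprotein subunit Etfb led at 128.53 and 120.90 TPM. Hadhb, the partner subunit of Hadha, had 116.82 and 111.51 TPM, and the very-long-chain dehydrogenase Acadvl had 95.06 and 101.63 TPM. The other carnitine palmitoyltransferase genes were below threshold, with Cpt1b at 0.61 and 0.26 TPM and Cpt1c at 0.17 and 0.69 TPM. Of the nuclear receptors and coactivator known to drive oxidation genes, Ppard had 2.84 and 2.04 TPM, Pparg 0.32 and 0.27, Ppargc1a 0.11 and 0.06, and Ppara was listed at 0 in both libraries.

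The 1 uptake gene of the list was close to the detection limit. The fatty acid receptor Cd36 (chr5:17781690-17888801, minus strand) had 0.00 and 0.06 TPM from 0 and 2 counts, where 3 counts would give 0.098 and 0.092 TPM. Cd36 is abundant in macrophages, adipocytes and endothelium. The adipocyte markers summed to 1.66 and 0.63 TPM, with none of 4 at 1 TPM in both libraries, and the endothelial markers to 0.12 and 0.00 TPM. Of the macrophage and monocyte markers, Cd68 had 3.35 and 2.72 TPM, Lyz2 0.76 and 0.68 TPM, and Adgre1 and Cd14 were listed at 0 in both. The part of such cells in the 2 Cd36 counts was not tested. Among 9 genes of fatty acid activation and binding, 7 were above threshold. The acyl-CoA synthetase Acsl5 led at 64.98 and 66.43 TPM, Acsl4 had 34.18 and 28.00 TPM, and the binding protein Fabp5 had 22.08 and 23.50 TPM. The fatty acid transport genes Slc27a1 and Slc27a4 were above threshold, at 4.29 and 5.34 TPM and at 1.73 and 2.07 TPM, so the level of Cd36 does not stand for uptake as a whole. With protein-coding transcripts alone Slc27a1 was at 0.58 and 2.13 TPM, below threshold in technical replicate 1, while Slc27a4 was unchanged. Fabp4 and the lipase Lpl were at 0.33 and 0.33 TPM and at 0.29 and 0.31 TPM.

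Summed over roles, TPM was 488.2 and 439.4 in sterol synthesis (15 genes) and 82.7 and 66.8 in fatty acid synthesis (3 genes). It was 135.5 and 139.1 in desaturation and elongation (6 genes), and 155.3 and 155.2 in oxidation (5 genes). Efflux and esterification (3 genes) summed to 122.6 and 114.2, and uptake (1 gene) to 0.00 and 0.06. These sums cover unlike numbers of genes, so their order depends on the list. Outside it, the 16 further oxidation genes summed to 708.2 and 700.1 TPM and the 7 further sterol synthesis genes to 485.0 and 458.0. Elovl5 and Abcg1 made up most of the sums of their groups.

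Part of these levels came from transcripts annotated as noncoding. Of the 35 genes above threshold, 30 were led by a protein-coding transcript when transcripts were ranked by TPM and 34 when ranked by estimated counts. The same transcript led on both scales in 28 genes. The protein-coding share of TPM was under 50% in both libraries in 4 genes, namely Srebf2, Lss, Fasn and Hadha. For Hadha it was 5.66% and 4.74%, since Hadha-201, a processed transcript of 2552 nt, took 50.7% and 49.1% of the TPM and 972 and 889 of the counts. For Lss it was 25.7% and 25.0%, with Lss-202, a processed transcript of 352 nt, leading at 36.5% and 35.9% from 17.7 and 13.7 counts. For Srebf2 it was 40.3% and 36.5%, with the retained-intron transcript Srebf2-205 leading at 40.9% and 43.7%.

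Fdft1 was split between Fdft1-202, annotated to nonsense-mediated decay, with 48.9% and 52.4% of its TPM, and the coding Fdft1-201 with 45.2% and 40.1%. The coding Srebf1-201 held 57.3% and 47.7% of the TPM of Srebf1 but 93.6% and 89.8% of its counts. Short transcripts thus weighed more in TPM than in counts in these genes. Of the 38 genes, 14 overlap an annotated gene on the other strand, among them Fdft1 with Ctsb, Hadha with Garem2, Srebf1 with Rai1 and Cyp51 with Akap9. The strand setting was not given in the sources used here, so reads from such partners cannot be told apart. Counts were whole in both libraries, within 0.005, for 22 of the 38 genes.

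**Figure D4:**
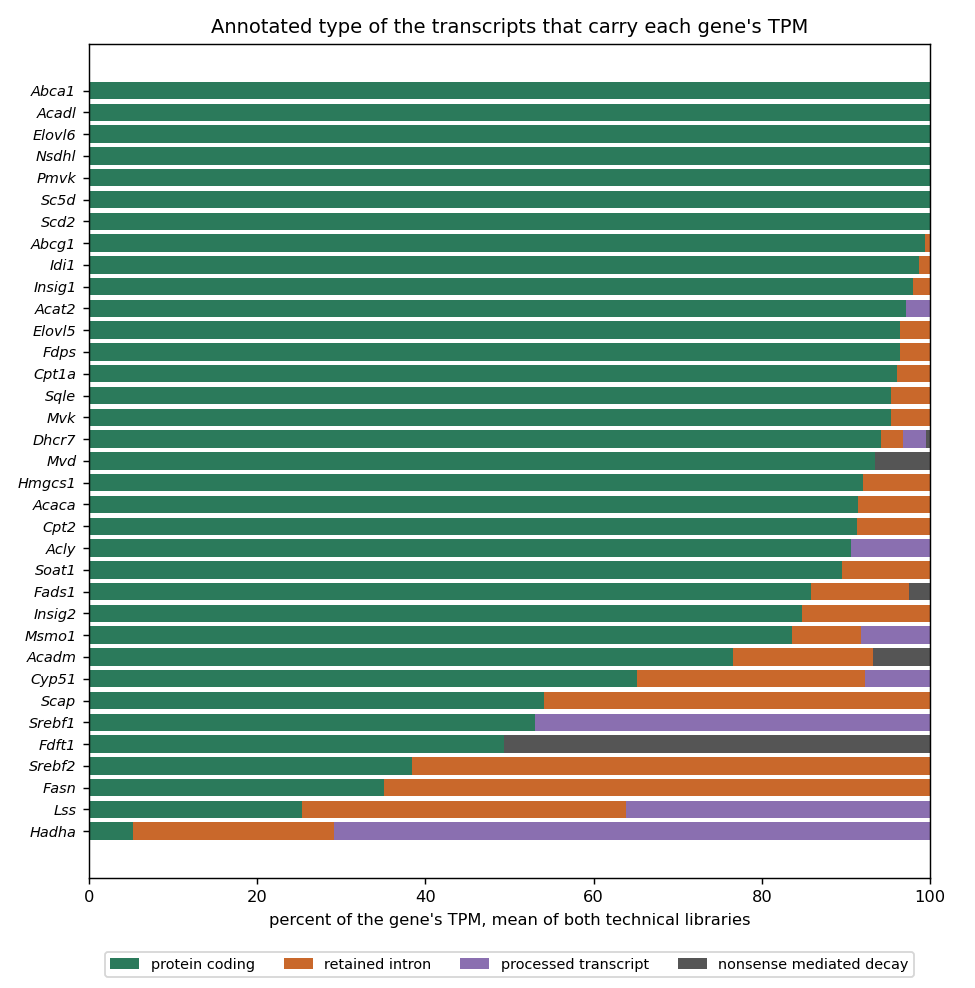
Share of each gene's TPM, as the mean of both technical libraries in percent, by the annotated type of its transcripts, for the 35 genes at 1 TPM or more. Genes are ordered by protein-coding share, from 100% for Abca1, Acadl, Elovl6, Nsdhl, Pmvk, Sc5d and Scd2 down to 5.19% for Hadha.

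To measure how far the technical libraries differed, rounded counts were compared with a two-sided exact binomial test, adjusted by the Benjamini-Hochberg method over 17334 genes. The test compares these 2 libraries and no conditions, and it assumes that only the sampling of reads separates them. It called 14 of the 35 genes tested, 3 higher and 11 lower in technical replicate 2. Over all genes tested it called 19.2%, with 9.42% higher and 9.78% lower. Among the 8610 genes with summed counts between those of Mvk (267) and Abcg1 (10895), it called 23.3%, with 11.6% higher and 11.7% lower. The median log2 ratio of scaled counts was -0.037 over the 35 genes and -0.0035 over all genes tested. With a common dispersion of 0.0111, fitted by edgeR over all genes, the exact test called none of the 35, with 2 at an unadjusted p under 0.05. It still called 312 genes in all. This dispersion was fitted with the 2 libraries taken as replicates of each other, so it holds the difference under test. Fewer calls are thus partly built in.

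Acat2 differed most, with 1126 and 632 counts, a log2 ratio of -0.66 (exact binomial test, adjusted p = 6.44e-18; 0.125 with the common dispersion). The sterol synthesis calls numbered 6 of 15, where 19.2% of all genes tested were called and 9.78% were called lower. All 6 were lower in technical replicate 2: Acat2, Mvd (243 and 165 counts, adjusted p = 0.0465), Fdps (0.0442), Lss (0.0452), Cyp51 (1306 and 1002 counts, 0.00686) and Dhcr7 (1177 and 901 counts, 0.00974), all by the exact binomial test. The other 9 did not pass, and their log2 ratios ran from -0.26 for Pmvk to 0.13 for Sqle. Idi1 had -0.13, and Sc5d and Hmgcs1 had 0.0036 and 0.0043. The ratio of Pmvk was larger in size than that of the called Fdps (-0.19). All 3 fatty acid synthesis genes were called: Acly lower with a log2 ratio of -0.24 (exact binomial test, adjusted p = 1.05e-06), Fasn lower with -0.32 (9.71e-05) and Acaca higher with 0.56 (6.09e-04). Srebf1 was higher with a log2 ratio of 0.29 (exact binomial test, adjusted p = 0.0103) and Abcg1 lower with -0.12 (3.06e-04). In oxidation, Cpt1a was lower with -0.34 (exact binomial test, adjusted p = 3.95e-04), Acadm lower with -0.26 from 716 and 528 counts (0.0123), and Acadl higher with 0.22 from 649 and 669 counts (0.0349). None of the 4 tested desaturation and elongation genes passed. These counts by role come from 1 pair of libraries and were not tested against the 19.2% of all genes.

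Of the 52 further genes of these pathways, 48 were tested and 4 were called (8.33%), all lower in technical replicate 2, among them Acsl4, Hadhb and Etfdh. Over all genes tested the share called was 19.2%, and the difference from it was not tested. On the TPM scale the spread between libraries was widest, among the 35 genes, for Acat2, with technical replicate 2 at 0.642 times technical replicate 1, and for Insig2 at 1.49 times. Srebf1 stood at 1.41 times, Scap at 1.35 times and Fasn at 0.705 times.

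**Figure D5:**
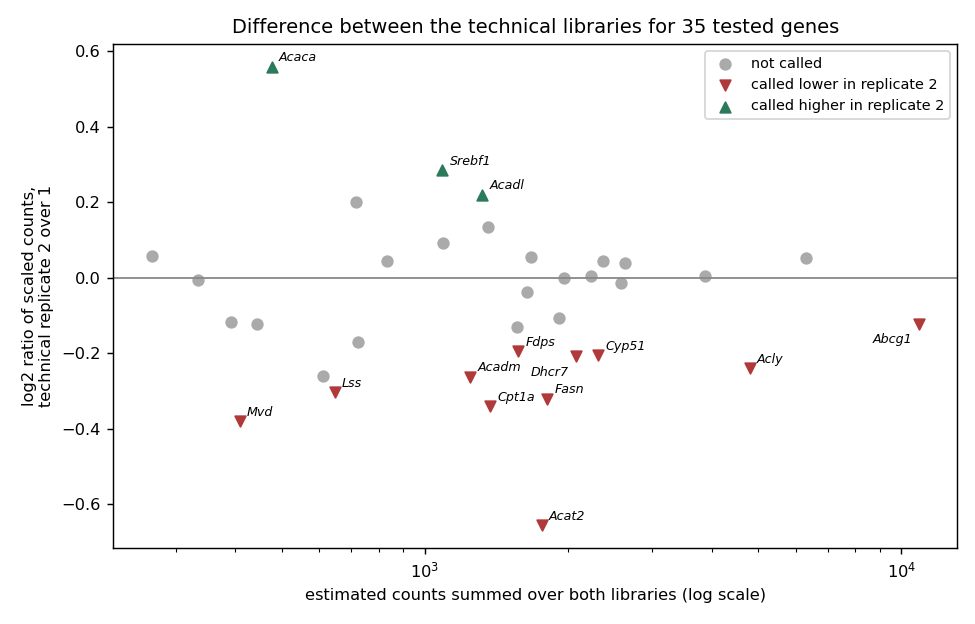
Log2 ratio of scaled counts, technical replicate 2 over 1, against estimated counts summed over both libraries on a log axis, for the 35 tested genes. Triangles mark the 14 genes called by the exact binomial test, 11 of them below 0 and 3 above, and grey circles mark genes that were not called; Acat2 lies lowest at -0.66 and Acaca highest at 0.56.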

How the data were processed

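Polyadenylated RNA of 1 biological replicate was read in 2 technical libraries (1 group). Per the file headers, the larger gene tables hold estimated counts, posterior mean counts and TPM, and the transcript tables also hold the percent of a gene's TPM, all deposited by the authors for mm10 with GENCODE M21. The smaller gene tables hold counts, which the authors made on an older gene set, GENCODE M4, per their deposited text. The aligner, quantifier and strand setting are not given in the sources used here. Entries without a gene name (transfer RNA, ERCC, phiX174), 0.174% and 0.158% of the estimated counts, stayed out of library sizes and tests.

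Estimated counts were rounded. Genes with at least 10 summed counts were compared by a two-sided exact binomial test (scipy 1.17.1), with the expected share from TMM library sizes (edgeR 4.0.16, R 4.3.3) and Benjamini-Hochberg adjustment at 0.05. A gene was called detected at 1 TPM in both libraries. A count of 3 came to 0.195 and 0.221 CPM. Ratios of TPM had no pseudocount, except where an added 1 TPM or a pseudocount of 1 is stated. The log2 ratios printed are of scaled counts, with a small constant added to each count. The test was tried on simulated counts that varied by the sampling of reads only, as it assumes. That check does not cover other variation between these libraries. Alternatives were DESeq2 1.42.0 size factors, no filter, posterior mean counts, the smaller table, edgeR's common dispersion, protein-coding transcripts, other thresholds and pseudocounts, and each library alone.

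The 38 genes, the lists beside them and the tests were chosen with earlier results of these data known. All 38 genes were named with both TPM values; counts and positions were given for the highest and lowest gene of each role, for related pairs and for called genes. Of the further pathway genes, the highest of each list, those below 1 TPM and those that set a comparison were named. 1 of the further genes is counted but not reported by name here.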

Additional observations from a re-analysis of the deposited data

How the results depend on the processing

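The count of 35 genes at 1 TPM or more was 35 with a threshold of 0.5 TPM, posterior mean TPM, protein-coding transcripts or either library alone, and 32 at 5 TPM. With protein-coding transcripts the group medians fell to 10.2 TPM in regulators, 21.8 in late sterol synthesis, 31.8 in efflux and esterification, 6.91 in fatty acid synthesis and 14.0 in oxidation, and the ratio of Scd2 to Scd1 became 937 from 220 (ratio of mean TPM). The Abcg1 ratio to Abca1 went from 43.8 to 43.5 there, to 3.35 in the smaller table (counts without correction for length) and to 28.8 with a pseudocount of 1. That pseudocount moved Scd2 to Scd1 from 220 to 18.2 and Fads1 to Fads2 from 63.3 to 5.35. With posterior mean TPM, medians were 33.4 in late sterol synthesis, 33.2 in efflux and esterification, 27.2 in oxidation and 0.28 for uptake. Without genes below 1 TPM, desaturation and elongation had a median of 12.3 TPM, and uptake had no value.

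Among the role groups, late sterol synthesis fell below efflux and early sterol synthesis with protein-coding transcripts, and below efflux in technical replicate 2 alone. Pairs whose order turned were Srebf2 to Srebf1, from 1.14 to 0.836 with protein-coding transcripts and 0.926 in the smaller table, Insig1 to Insig2, from 1.11 to 0.304 in the smaller table, and Acadm to Acadl, from 1.05 to 0.806 and 0.867 in turn. From each library alone the ratio ranged from 0.896 to 1.43 for Insig1 to Insig2, 0.953 to 1.16 for Acadm to Acadl, 127 to 922 for Scd2 to Scd1 and 41.7 to 150 for Fads1 to Fads2, and the oxidation median from 28.0 to 31.1 TPM. Fads2 had no count in the smaller table, so no ratio was formed there. The other ratios from the smaller table are of counts without correction for length, unlike the TPM ratios beside them.

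The 14 calls between libraries became 2 in the smaller table (Acly and Fasn) and 0 with the common dispersion. That dispersion was fitted on the difference under test, so the fall to 0 is partly built in. They were the same 14 genes with DESeq2 size factors and with posterior mean counts, and 10 of them without the filter. Of the 86 alternative values, 60 kept their order and moved by less than 1 SD of the libraries or, for counts, within 1.5 times. That SD comes from the same 2 libraries, so a value from 1 library alone mostly falls within it by construction. For Scd2 to Scd1 and Fads1 to Fads2 that SD is so wide that it covers the moves with the pseudocount. The cause of these changes was not tested. No paired analysis was possible because there was only 1 group. Depth limits Scd1, Fads2 and Cd36, with 0 to 4 counts each per library.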

Other observations

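Genes around sterol cleavage, storage and import that stand outside the 38 were mostly present. The protease Mbtps1, which makes the first cut in SREBP precursors, had 33.96 and 37.21 TPM, and Mbtps2, which makes the next, had 9.85 and 8.33 TPM. The lysosomal lipase Lipa, which frees cholesterol from esters, had 71.50 and 69.90 TPM, and the lysosomal transporter Npc1 had 14.99 and 11.45 TPM. The lipoprotein receptor Scarb1 had 4.89 and 4.54 TPM, and the esterifying enzyme Soat2 had 1.00 and 1.35 TPM from 26.9 and 32 counts. The prenyl diphosphate synthase Ggps1, which makes the lipid used for protein geranylgeranylation, had 65.82 and 68.55 TPM. None of these 7 genes was called between the libraries by the exact binomial test, which called 19.2% of all genes tested. So few genes do not set them apart from that share.

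In the mitochondrial route, the carnitine carrier Slc25a20 had 30.54 and 31.35 TPM. The later enzymes Hadh, Echs1 and Acaa2 had 60.34 and 58.47, 60.41 and 60.62, and 74.17 and 81.53 TPM. Etfdh, which passes the electrons to ubiquinone, had 38.45 and 31.79 TPM and was called lower in technical replicate 2 (exact binomial test, adjusted p = 1.01e-04).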
